A study of Mus musculus with 8 samples.

Results

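AP-1 and immediate early genes are described here as 10 mouse genes taken by name from a table of 29880 genes: the 7 AP-1 subunits Fos, Fosb, Fosl1, Fosl2, Jun, Junb and Jund, and the 3 zinc finger factors Egr1, Klf4 and Klf6. RNA was sequenced in 8 libraries of fractionated spermatogenic cells, with 2 libraries for each genotype (WT, KO) at each stage (meiotic, post-meiotic). All mice were C57BL/6 and 3 to 6 months old. The WT mice carried H3.3BWT/WT :Actin Cre WT and the KO mice H3.3BKO/KO :Actin Cre WT, so every group shares the same Actin Cre label. The KO mice lack H3f3b, 1 of the genes for the replacement histone H3.3. All groups also share the preparation of the cells: testis tubules were digested with collagenase for 15 min at 35 °C, dispersed in medium with 10 mM sodium butyrate, an inhibitor of histone deacetylases, passed through a 100 µm filter and left to sediment through an albumin gradient for 70 min. Post-meiotic fractions were mainly round spermatids with a few elongated ones. The labels describe RNA taken from the tubules of a single mouse and also the pooling of cell fractions, and give no number of mice per library. Whether a meiotic and a post-meiotic library with the same number came from the same mouse is not stated. The p-values therefore measure the spread between these libraries, which the test estimates partly from the spread of other genes.

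AP-1 is a dimer of bZIP proteins, built from a Jun subunit paired with a Fos subunit or with another Jun subunit, that binds short palindromic sites in promoters and enhancers. Immediate early genes are those whose transcription rises within minutes of a stimulus without new protein being made; MAP kinases acting on factors already bound to their promoters switch them on, and their transcripts are short-lived. In the mouse testis Jund is needed for male fertility, and Klf4 is known as a gene of round spermatids and Sertoli cells.

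Totals of counted reads were 57853283 to 92836630 per library. H3f3b, the targeted gene, had 554 to 568 CPM in WT meiotic and 9.84 to 11.2 CPM in KO meiotic libraries, and 217 to 237 against 6.43 to 7.70 CPM in post-meiotic libraries, so each library matched its label. CPM are read counts scaled for sequencing depth, here with TMM factors, which set the libraries to a common centre. Marker genes of the labelled stages followed the labels: the summed level of 12 spermatid markers was 9444 to 12790 CPM in meiotic and 32280 to 36010 CPM in post-meiotic libraries. The fractions were not pure, and marker genes of other testis cells were read in every library, with none at 0.

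Among the 10 genes Klf4 had the highest level in all 4 groups and Jund the next highest (CPM per kb of exon, the scale on which genes of unequal length are compared). In WT meiotic cells the levels per kb were 36.5 ± 0.559 for Klf4, 8.56 ± 0.792 for Jund and 2.64 ± 0.189 for Jun (mean ± SD, n = 2). The other 7 genes were below 1 CPM per kb there, and Fos was the lowest at 0.110 ± 0.00217. The place of Fosl1 among Klf6, Egr1 and Fosb in that group is not set, since its SD, 0.143 CPM per kb, is larger than its gap to each of them. In KO post-meiotic cells Fos reached 1.27 ± 0.236 CPM per kb and stood beside Jun at 1.41 ± 0.115 and Klf6 at 1.55 ± 0.296, which are not apart from each other beyond their SD. Egr1 and Fosl1 were likewise not apart there, at 0.911 ± 0.229 and 0.895 ± 0.0959 CPM per kb.

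**Figure D1:**
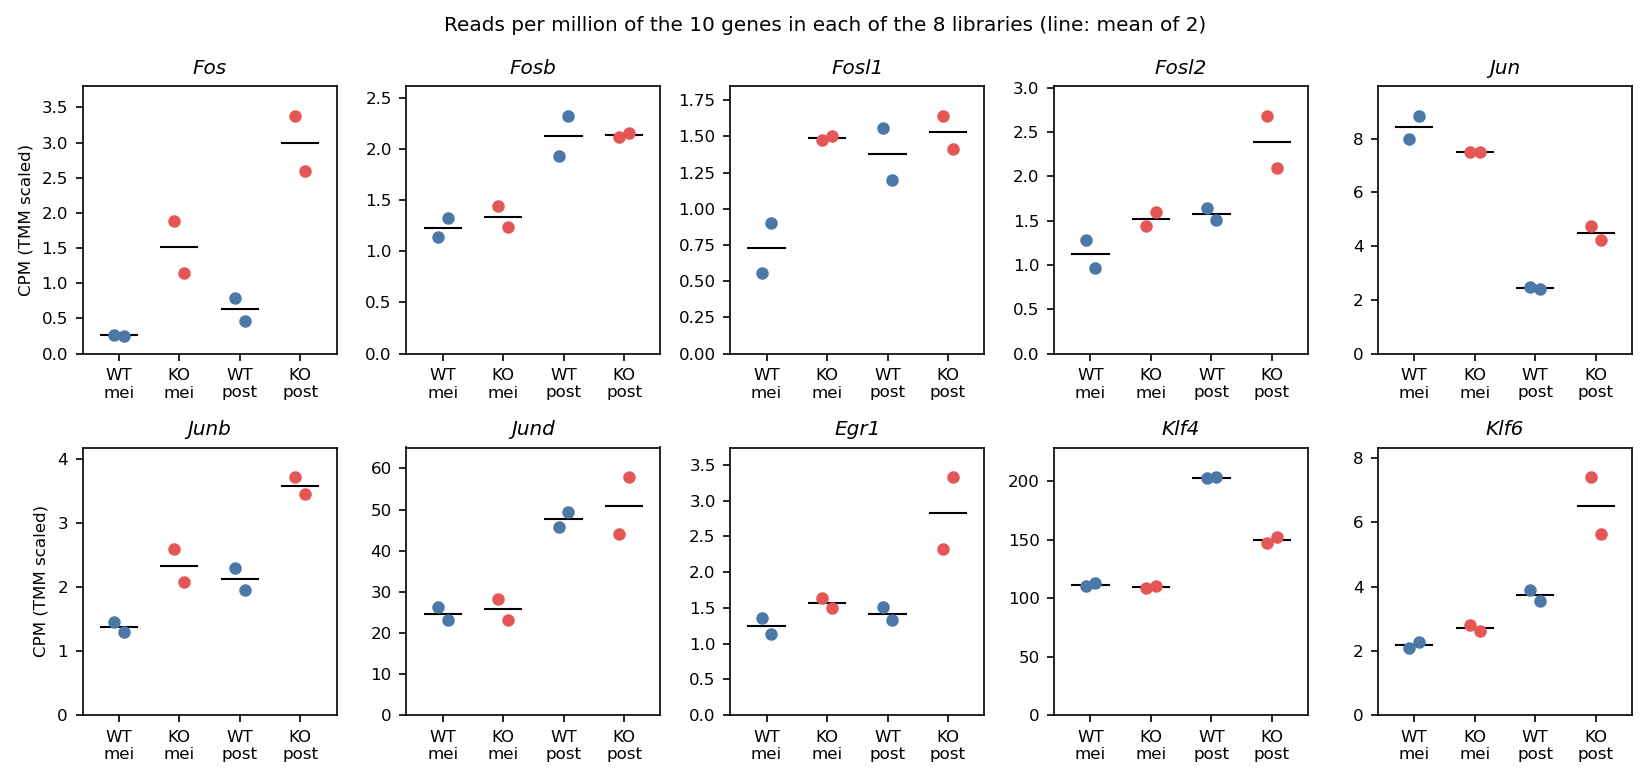
CPM of each of the 10 genes in the 8 libraries, blue for WT and red for KO, with a line at the mean of the 2 libraries of a group; each panel has its own linear axis from 0. Fos is higher in both KO libraries than in any WT library of the same stage. Jun falls from between 7.50 and 8.86 CPM in meiotic cells to between 2.40 and 4.76 CPM in post-meiotic cells. Klf4 is lower in KO than in WT after meiosis. Its meiotic libraries lie close, at 108.7 and 110.2 CPM in KO and 110.4 and 112.8 CPM in WT.

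The promoters were searched for sites known to bind AP-1 and its relatives. RefSeq promoters on GRCm38.p6 matched 8 of the 10 genes, all but Egr1 and Fosl1, and the 250 bases before the start were searched on both strands. No matched gene holds the AP-1 site TGACTCA (4.43% of 27025 promoters) or the full CRE TGACGTCA (1.62%). Its first letters TGACGT, which also lie within the full CRE, occur in Fos (6.56% of promoters), at bases -66 to -61 from the start. Fos also holds the TATA box TATAAA at -33 to -28 (13% of promoters). The variant TGACATCA, known in the Jun promoter as a site bound by dimers of Jun with ATF2, occurs in Jun at -45 to -38 and in Klf6 at -119 to -112 (3.02% of promoters). A CArG box, the site of SRF, is in none of the 8 windows (1.4% of promoters). Sites farther than 250 bases from the start were not searched, so these genes may hold one there. The promoters of Egr1 and Fosl1 were not searched at all. Fos, Jun and Klf6 are shown because they hold these matches, in capitals, and because all 3 differed in level between KO and WT post-meiotic cells. The stretches are of 60 bases, Fos at chr12:85473820-85473879 on the plus strand, Jun at chr4:95052243-95052302 on the minus strand and Klf6 at chr13:5861349-5861408 on the plus strand:
Fos: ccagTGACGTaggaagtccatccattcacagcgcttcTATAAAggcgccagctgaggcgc
Jun: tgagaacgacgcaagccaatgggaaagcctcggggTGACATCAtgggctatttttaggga
Klf6: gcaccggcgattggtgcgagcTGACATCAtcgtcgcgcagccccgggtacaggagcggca
A match is a description of the letters in the window.

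Fos, the subunit that gives AP-1 with Jun its strongest DNA binding, was the gene that differed most between the genotypes. It lies on the plus strand of chromosome 12 at 86814840 to 86818223 (mm9) with 4 exons. Libraries 1 and 2 counted 17 and 15 of its reads in WT meiotic cells and 119 and 113 in KO meiotic cells, then 49 and 26 in WT and 214 and 149 in KO post-meiotic cells. On the scale of CPM these are 0.258 ± 0.0051, 1.52 ± 0.523, 0.627 ± 0.228 and 2.99 ± 0.555 (mean ± SD, n = 2). All 4 KO libraries were above all 4 WT libraries, KO meiotic libraries being above WT post-meiotic ones as well. Fos rose 5.67-fold in KO meiotic cells (log2 2.50 ± 0.34 SE, 95% interval 1.79 to 3.22, edgeR adjusted p = 5.39e-05). In KO post-meiotic cells it rose 4.72-fold (log2 2.24 ± 0.27, 1.67 to 2.81, edgeR adjusted p = 1.71e-05). It passed the threshold, an adjusted p under 0.01, in all 15 alternatives of both comparisons, with log2 changes of 2.14 to 2.85 in meiotic and 1.91 to 2.66 in post-meiotic cells. The difference between the 2 KO effects was -0.27 on the log2 scale, with an interval of -1.26 to 0.72 (edgeR adjusted p = 0.783). In such bulk fractions more cells that express a gene and more of its RNA per cell cannot be told apart.

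From meiotic to post-meiotic cells Fos rose 2.44-fold in WT (log2 1.29 ± 0.40, edgeR adjusted p = 0.00979) and 2.03-fold in KO (log2 1.02 ± 0.22, edgeR adjusted p = 0.00073). The WT increase rests on few reads. It passed in 8 of 15 alternatives. It was lost without WT meiotic library 1 (1.30, adjusted p = 0.0455), WT meiotic library 2 (1.26, adjusted p = 0.0434), WT post-meiotic library 1 (0.85, adjusted p = 0.139), KO post-meiotic library 1 (1.29, adjusted p = 0.0116) or KO post-meiotic library 2 (1.29, adjusted p = 0.0119). It was also lost with library totals only (1.15, adjusted p = 0.0207) and at 50 reads in 2 libraries (1.32, adjusted p = 0.0108). The KO increase was 0.66 without KO meiotic library 2 (adjusted p = 0.0197) and 0.79 without KO post-meiotic library 1 (adjusted p = 0.0246).

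Fosl1, also called Fra-1, is a Fos relative that lacks the transactivation domain of Fos and is itself induced by AP-1. It lies on the plus strand of chromosome 19 at 5447703 to 5455945 (mm9) with 4 exons. Its CPM were 0.554 and 0.899 in WT meiotic, 1.47 and 1.50 in KO meiotic, 1.56 and 1.20 in WT post-meiotic and then 1.64 and 1.41 in KO post-meiotic libraries. The WT meiotic pair stood alone below the other 6 libraries. Fosl1 rose in KO meiotic cells by 1.05 ± 0.22 on the log2 scale (2.06-fold, edgeR adjusted p = 0.00146). That call was lost without WT meiotic library 1 (0.72, adjusted p = 0.0506) or KO meiotic library 2 (1.02, adjusted p = 0.0155). It also rose from meiotic to post-meiotic cells in WT, by 0.94 ± 0.23 (edgeR adjusted p = 0.00125), a call lost without WT meiotic library 1 (0.61, adjusted p = 0.0485) or WT post-meiotic library 1 (0.74, adjusted p = 0.0294). In KO cells the same step was 0.04 (interval -0.37 to 0.45), and KO against WT in post-meiotic cells was 0.14 (-0.29 to 0.57). The difference of the KO effect between the stages was -0.90 ± 0.31 (edgeR adjusted p = 0.069), which did not pass. Ccdc85b overlaps Fosl1 on the other strand and had 52 to 103 reads per library, against 36 to 148 for Fosl1.

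Fosl2, or Fra-2, the other short Fos relative, lies on chromosome 5 at 32438845 to 32460204 (mm9, plus strand, 4 exons). Its CPM were 1.28 and 0.967 in WT meiotic, 1.44 and 1.59 in KO meiotic, 1.64 and 1.51 in WT post-meiotic and then 2.69 and 2.09 in KO post-meiotic libraries. Both KO libraries of a stage were above both WT libraries, but neither difference passed: 0.44 ± 0.19 in meiotic cells (edgeR adjusted p = 0.0971) and 0.60 ± 0.18 in post-meiotic cells (edgeR adjusted p = 0.0125). Post-meiotic Fosl2 passed with library totals only (0.71, adjusted p = 0.00552), with no filter (0.60, adjusted p = 0.00535) and with the replicate number as a block (0.60, adjusted p = 0.00771). From meiotic to post-meiotic cells it rose in KO, by 0.65 ± 0.17 (edgeR adjusted p = 0.0024), and the WT step was 0.48 ± 0.20 (edgeR adjusted p = 0.0371). The KO step was lost without KO meiotic library 1 (0.58, adjusted p = 0.02), KO meiotic library 2 (0.73, adjusted p = 0.0104) or KO post-meiotic library 1 (0.43, adjusted p = 0.0887), and in DESeq2 (0.64, adjusted p = 0.023).

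Fosb, a Fos relative with long and short protein forms, lies on chromosome 7 at 19888070 to 19895394 (mm9, minus strand, 4 exons). It had 1.14 and 1.32 CPM in WT meiotic, 1.44 and 1.24 in KO meiotic, 1.93 and 2.33 in WT post-meiotic and then 2.12 and 2.16 in KO post-meiotic libraries. WT and KO libraries overlapped at both stages. The KO effects were 0.11 in meiotic cells (interval -0.27 to 0.49) and 0.01 in post-meiotic cells (-0.34 to 0.35), and neither interval reaches the change of Fos. It rose after meiosis in both genotypes, by 0.79 ± 0.18 in WT (edgeR adjusted p = 0.000528) and 0.69 ± 0.17 in KO (edgeR adjusted p = 0.00122). The WT call was lost without WT meiotic library 1 (0.67, adjusted p = 0.0128) or WT post-meiotic library 2 (0.65, adjusted p = 0.0134). The KO call was lost without KO meiotic library 2 (0.56, adjusted p = 0.03), KO post-meiotic library 1 (0.68, adjusted p = 0.0114) or KO post-meiotic library 2 (0.66, adjusted p = 0.0119), and in DESeq2 (0.67, adjusted p = 0.0144).

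Jun, the founding Jun subunit, followed another course and fell after meiosis. It is a gene of 1 exon on the minus strand of chromosome 4 at 94715725 to 94718913 (mm9). Counted reads were 520 and 522 in the WT and 474 and 739 in the KO meiotic libraries. After meiosis they were 154 and 134 in the WT and 301 and 243 in the KO libraries. In CPM that is 8.43 ± 0.602, 7.50 ± 0.00885, 2.44 ± 0.0549 and 4.50 ± 0.368 (mean ± SD, n = 2). The 4 groups did not overlap, and KO post-meiotic libraries lay between the meiotic libraries and the WT post-meiotic ones. Jun fell 3.45-fold through the WT transition (log2 -1.79 ± 0.12, edgeR adjusted p = 2.14e-11) and 1.67-fold through the KO transition (log2 -0.74 ± 0.11, edgeR adjusted p = 3.1e-06). Against WT it was -0.17 ± 0.10 in KO meiotic cells (edgeR adjusted p = 0.222) and rose by 0.88 ± 0.12 in KO post-meiotic cells (1.84-fold, edgeR adjusted p = 2.17e-05). Tested directly, the KO effect was larger after meiosis by 1.05 ± 0.16 (interval 0.72 to 1.38, edgeR adjusted p = 0.000727). Without KO post-meiotic library 1 that difference was 0.93 and did not pass (adjusted p = 0.0175). Leydig cell markers fell with Jun through both transitions (12 of 12 in each). Their summed level went from 293 to 341 CPM in WT meiotic to 28.0 to 39.5 in WT post-meiotic libraries, and from 196 to 297 CPM in KO meiotic to 54.5 to 56.3 in KO post-meiotic libraries. Markers of earlier germ cells fell too, while spermatid markers rose in 12 of 12 in each transition. Spermatocyte markers fell in 8 of 11 in each transition, their sum going from 3816 to 3835 CPM in WT meiotic to 1325 to 1330 CPM in WT post-meiotic and from 4039 to 4438 to 1442 to 1505 CPM in KO libraries, and 2 of 11 rose. Of all tested genes 32.4% fell and 29.6% rose in WT, and 31.5% fell and 29.5% rose in KO. Spermatogonial markers fell in 6 of 12 in WT and 7 of 12 in KO. Their sum went from 132.9 to 141.8 CPM in WT meiotic to 71.2 to 71.6 CPM in WT post-meiotic libraries. It was 153.2 to 174.4 CPM in KO meiotic and 80.7 to 87.7 CPM in KO post-meiotic libraries. The part of these cells in the course of Jun was not tested. BC042782, on the other strand over Jun, had 62 to 104 reads per library and 0.955 to 1.25 CPM.

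Junb, a Jun subunit that often opposes Jun on shared sites and is itself an immediate early gene, is a gene of 1 exon on chromosome 8 at 87500811 to 87502617 (mm9, minus strand). It had 1.45 and 1.29 CPM in WT meiotic, 2.60 and 2.07 in KO meiotic, 2.30 and 1.95 in WT post-meiotic and then 3.71 and 3.45 in KO post-meiotic libraries. KO libraries were above WT libraries at each stage, with WT post-meiotic and KO meiotic libraries overlapping. The estimated KO effect was 0.75 ± 0.17 in meiotic (1.68-fold, edgeR adjusted p = 0.00215) and 0.75 ± 0.15 in post-meiotic cells (edgeR adjusted p = 0.000891). The difference between them was 0.00 with an interval of -0.40 to 0.40. The meiotic call was lost without WT meiotic library 1 (0.83, adjusted p = 0.0101), WT meiotic library 2 (0.66, adjusted p = 0.031) or KO meiotic library 1 (0.59, adjusted p = 0.0271). The post-meiotic call was lost without WT post-meiotic library 2 (0.62, adjusted p = 0.0215) or KO post-meiotic library 1 (0.67, adjusted p = 0.0208). Junb also rose after meiosis by 0.64 in each genotype (edgeR adjusted p = 0.00293 in WT and 0.000728 in KO). The WT rise was lost without WT meiotic library 2 (0.55, adjusted p = 0.0317) or WT post-meiotic library 1 (0.52, adjusted p = 0.0453), with library totals only (0.50, adjusted p = 0.0179) and in DESeq2 (0.65, adjusted p = 0.011). The KO rise was lost without KO meiotic library 2 (0.46, adjusted p = 0.0319) or KO post-meiotic library 1 (0.55, adjusted p = 0.0177).

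Jund, the Jun subunit that most cells express without a stimulus, is also a gene of 1 exon on chromosome 8, at 73221638 to 73224515 (mm9, plus strand). Jund had 26.3 and 23.0 CPM in WT meiotic, 28.3 and 23.1 in KO meiotic, 45.9 and 49.5 in WT post-meiotic and then 43.9 and 57.9 in KO post-meiotic libraries. The genotypes overlapped at each stage and the stages did not. Its KO effects were 0.05 (interval -0.37 to 0.47) and 0.09 (-0.31 to 0.50). After meiosis it rose by 0.95 ± 0.17 in WT (edgeR adjusted p = 0.00277) and 0.99 ± 0.17 in KO (edgeR adjusted p = 0.00219). Its libraries spread more than those of most genes in the fit. The WT rise did not pass without WT meiotic library 2 (0.85, adjusted p = 0.0196), WT post-meiotic library 1 (1.01, adjusted p = 0.0123) or WT post-meiotic library 2 (0.89, adjusted p = 0.0206). The KO rise did not pass without KO meiotic library 2 (0.84, adjusted p = 0.0181) or with the 4 KO libraries fitted alone (1.00, adjusted p = 0.0272).

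Per kb of exon, Jund made up 59.4% to 82.6% of the summed AP-1 transcript in every library. The 4 Fos family genes together were 7.15% and 9.12% of it in WT meiotic, 14.4% and 14.6% in KO meiotic, 10.2% and 8.56% in WT post-meiotic and then 15.4% and 10.9% in KO post-meiotic libraries. KO libraries were above WT libraries at each stage. Fos itself was 0.831% and 0.856% in WT meiotic and 5.04% and 3.62% in KO meiotic libraries. After meiosis it was 1.67% and 0.952% in WT and 6.46% and 4.21% in KO libraries. Within the Fos family Fos was 9.38% to 16.4% of the transcript in WT and 24.8% to 42.0% in KO libraries. Jun went from 18.7% and 22.0% in WT meiotic to 3.88% and 3.62% in WT post-meiotic libraries, and from 14.8% and 17.4% to 6.71% and 5.07% in KO libraries. These shares follow from the levels given above and were not tested apart from them.

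**Figure D2:**
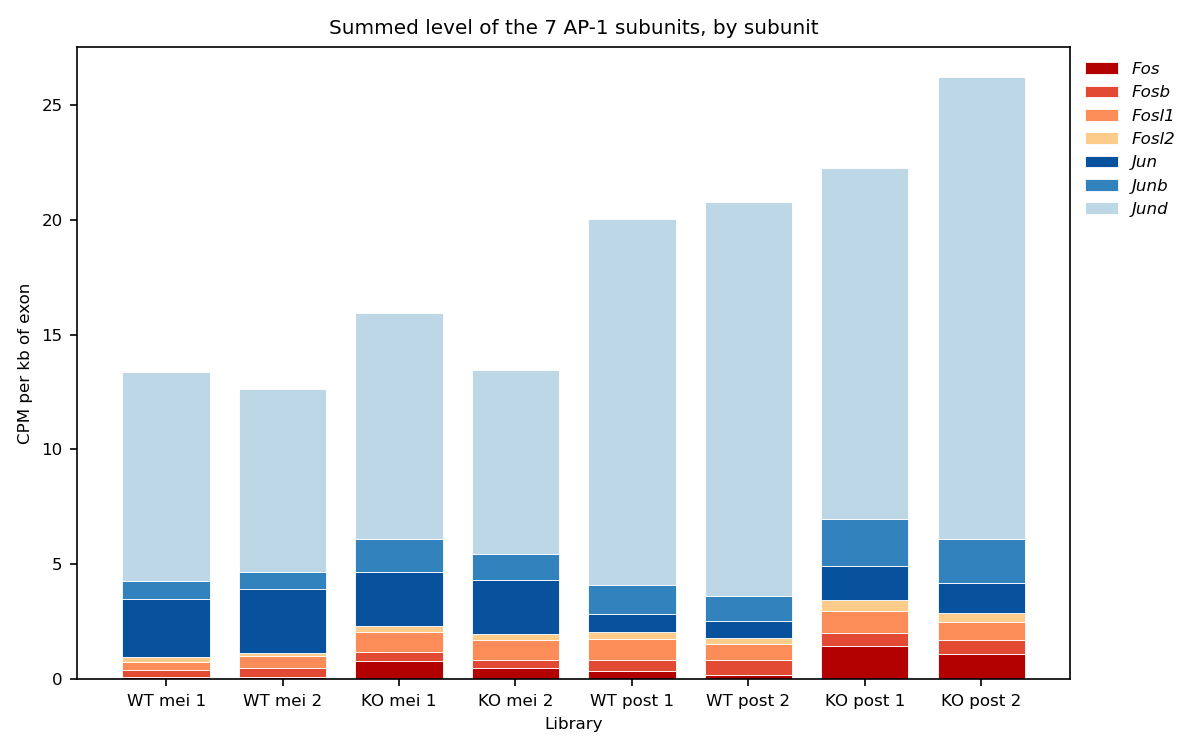
Stacked bars of the level of the 7 AP-1 subunits in each library, in CPM per kb of exon, reds for the Fos family and blues for the Jun family. Jund is the tallest segment of every bar, the Fos segment is wider in KO than in WT bars of the same stage, and the Jun segment is narrower after meiosis.

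Egr1, a zinc finger factor induced together with Fos, stands on chromosome 18 at 35019477 to 35024638 (mm9, plus strand, 2 exons). Its CPM were 1.36 and 1.14 in WT meiotic, 1.63 and 1.50 in KO meiotic, 1.51 and 1.33 in WT post-meiotic and then 2.32 and 3.33 in KO post-meiotic libraries. The KO post-meiotic pair was above the other 6 libraries, and the WT stages overlapped. Egr1 rose in KO post-meiotic cells by 0.98 ± 0.19 (1.98-fold, edgeR adjusted p = 0.00045). Without KO post-meiotic library 2 the change was 0.70 (adjusted p = 0.0197). In meiotic cells the KO effect was 0.32 (interval -0.09 to 0.73, edgeR adjusted p = 0.244), and the difference between the stages was 0.66 ± 0.27 (edgeR adjusted p = 0.139). Egr1 also rose through the KO transition, by 0.85 ± 0.18 (edgeR adjusted p = 0.000254), or by 0.56 without KO post-meiotic library 2 (adjusted p = 0.0201). The WT step was 0.19 (interval -0.25 to 0.62).

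Klf4, a zinc finger factor known from reprogramming and, in the mouse testis, from round spermatids and Sertoli cells, is on the minus strand of chromosome 4 at 55540013 to 55545347 (mm9) with 5 exons. Reads counted on it were 7171 and 6649 in the WT and 6861 and 10862 in the KO meiotic libraries, and 12573 and 11351 against 9305 and 8751 after meiosis. Scaled to depth this was 112 ± 1.71, 109.5 ± 1.06, 203 ± 0.723 and 149.8 ± 3.88 CPM (mean ± SD, n = 2). Post-meiotic groups were each apart from the rest, WT above KO, while the meiotic groups differed by -0.03 (interval -0.12 to 0.07). Klf4 was the only 1 of the 10 genes to fall in KO cells: by 0.44 ± 0.046 on the log2 scale after meiosis (1.35-fold lower, edgeR adjusted p = 1e-06), a call kept in all 15 alternatives. It rose 1.82-fold through the WT transition (log2 0.86 ± 0.05, edgeR adjusted p = 1.24e-12) and 1.37-fold through the KO transition (log2 0.45 ± 0.05, edgeR adjusted p = 2.99e-08). The difference of the KO effect between the stages was -0.41 ± 0.07 (interval -0.55 to -0.27, edgeR adjusted p = 0.00113). Without KO post-meiotic library 1 it was -0.41 and did not pass (adjusted p = 0.0152).

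Klf6, a zinc finger factor induced by injury and growth signals, is on the plus strand of chromosome 13 at 5860735 to 5869639 (mm9) with 4 exons. It had 2.09 and 2.27 CPM in WT meiotic, 2.82 and 2.63 in KO meiotic, 3.90 and 3.57 in WT post-meiotic and then 7.41 and 5.65 in KO post-meiotic libraries. No 2 groups overlapped, and KO libraries were the higher ones at each stage. Klf6 rose in KO post-meiotic cells by 0.81 ± 0.13 (1.75-fold, edgeR adjusted p = 0.000135), or by 0.57 without KO post-meiotic library 1 (adjusted p = 0.0116). The KO meiotic difference of 0.32 ± 0.15 did not pass (edgeR adjusted p = 0.131). It rose after meiosis in both genotypes, by 0.78 ± 0.15 in WT (edgeR adjusted p = 0.000127) and 1.27 ± 0.14 in KO (edgeR adjusted p = 5.38e-08), and passed in all 15 alternatives of both. The difference of the KO effect between the stages was 0.49 ± 0.20 (edgeR adjusted p = 0.141).

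Counted over the list, 3 of the 10 genes rose and 0 fell in KO meiotic cells, where 8.98% of 20412 tested genes rose and 8.55% fell. At an unadjusted p under 0.05 edgeR had 4 higher and 0 lower, and DESeq2 called 3 higher and 0 lower. The median log2 change of the 10 genes was 0.32, against 0.00 over all tested genes. All 3 that rose, Fos, Fosl1 and Junb, are AP-1 subunits. None of the zinc finger genes passed in meiotic cells in edgeR, also at an unadjusted p under 0.05, or in DESeq2. Without WT meiotic library 1 Fos was the only 1 of the 3 to pass. Leukocyte markers moved with these genes: 4 of 12 rose and 0 fell in KO meiotic cells (9 and 0 at an unadjusted p under 0.05, 5 and 0 in DESeq2). Their summed level was 13.3 to 14.4 CPM in WT and 27.0 to 31.7 CPM in KO meiotic libraries. Their part in the result was not tested. Germ cell markers moved too: 4 of 12 of spermatogonia and 6 of 11 of spermatocytes rose, 1 of spermatocytes fell, and 2 of 12 of spermatids fell. Leydig markers fell in 2 of 12, peritubular and fibroblast markers rose in 1 and fell in 2 of 12, and no Sertoli, endothelial or red cell marker passed in edgeR (3, 3 and 0 at an unadjusted p under 0.05, none in DESeq2). For the other lists DESeq2 called 3 spermatogonial markers higher, 6 spermatocyte markers higher and 1 lower, 2 spermatid and 1 Leydig marker lower, and 1 peritubular and fibroblast marker higher and 4 lower. Some marker sums were close between the genotypes: 42.6 to 46.3 against 44.3 to 48.5 CPM for peritubular and fibroblast markers and 2.36 to 2.51 against 2.35 to 2.90 CPM for red cell markers. The close peritubular and fibroblast sums hold opposite changes. Col3a1 rose by 2.12 ± 0.115, while Tagln and Des fell by 0.98 ± 0.16 and 0.96 ± 0.18.

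In KO post-meiotic cells 5 of the 10 genes rose (Fos, Jun, Junb, Egr1 and Klf6) and 1 fell (Klf4), where 12.4% of tested genes rose and 11.6% fell. Their median log2 change was 0.68, against 0.04 over all tested genes. Without KO post-meiotic library 1 the 5 became 3. Scaling by library totals only moved the split of all called genes from 51.6% to 77.2% higher here and from 51.2% to 69.3% higher in meiotic cells, and RLE factors and DESeq2 moved it to 40.3% and 34.2% higher here. Under library totals 6 of the 10 genes rose and Klf4 still fell. Members of several somatic and blood marker lists rose as well. Leukocyte markers rose in 7 of 12 (51.4 to 51.8 CPM summed in WT, 90.1 to 103.7 in KO), peritubular and fibroblast markers in 5 of 12 (140.5 to 182 against 273 to 355) and red cell markers in 4 of 5 (11.3 to 11.9 against 30.9 to 32.8). Leydig markers rose in 4 of 12 (28.0 to 39.5 against 54.5 to 56.3) and Sertoli markers in 5 of 11 (88.8 to 105 against 123 to 128), while endothelial markers fell in 2 of 12 (73.2 to 74.4 against 62.4 to 63.2). Spermatogonial markers rose in 3 of 12 and spermatocyte markers in 7 of 11, and spermatid markers fell in 2 of 12. DESeq2 called fewer Sertoli and spermatogonial markers higher, 2 and 1. It called 7 leukocyte, 6 peritubular and fibroblast, 4 red cell, 4 Leydig and 6 spermatocyte markers higher, and 2 endothelial, 2 spermatocyte and 3 spermatid markers lower. The part of these cells in the changes of the 6 genes was not tested.

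**Figure D3:**
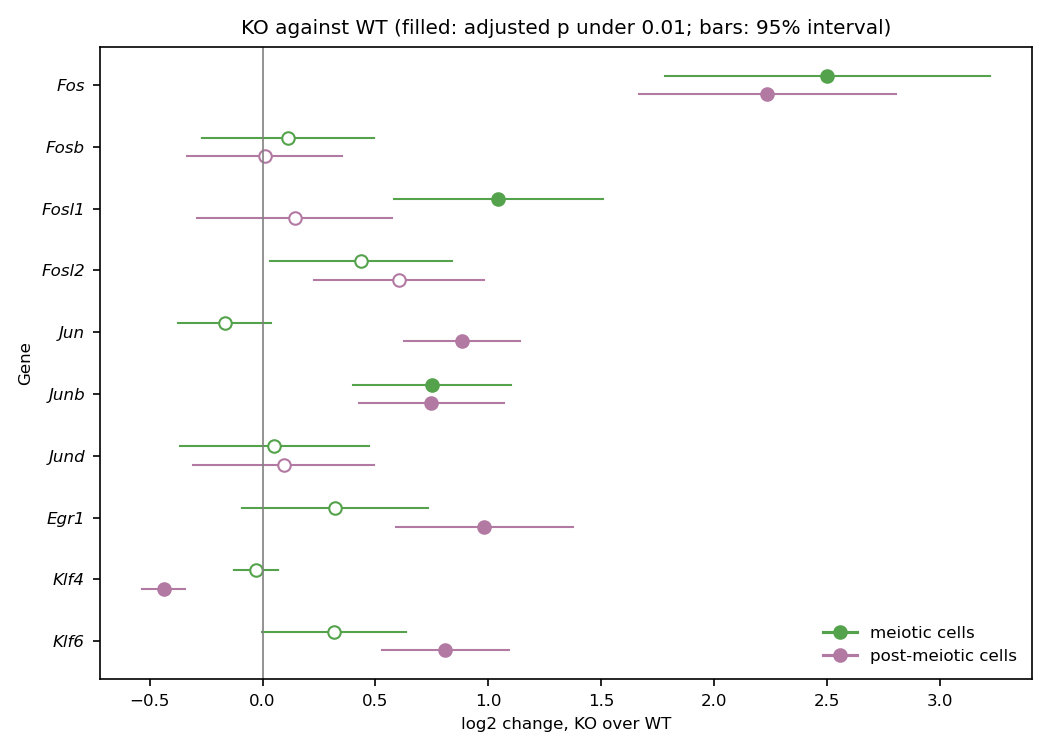
Log2 change of each gene in KO over WT cells, green for meiotic and purple for post-meiotic cells, with 95% intervals; filled points passed an adjusted p under 0.01. Fos lies farthest from 0 at both stages, Junb at the same place in both, and Jun, Egr1, Klf6 and Klf4 passed only in post-meiotic cells, where the difference between the stages was itself past the threshold for Jun and Klf4 alone.

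**Figure D4:**
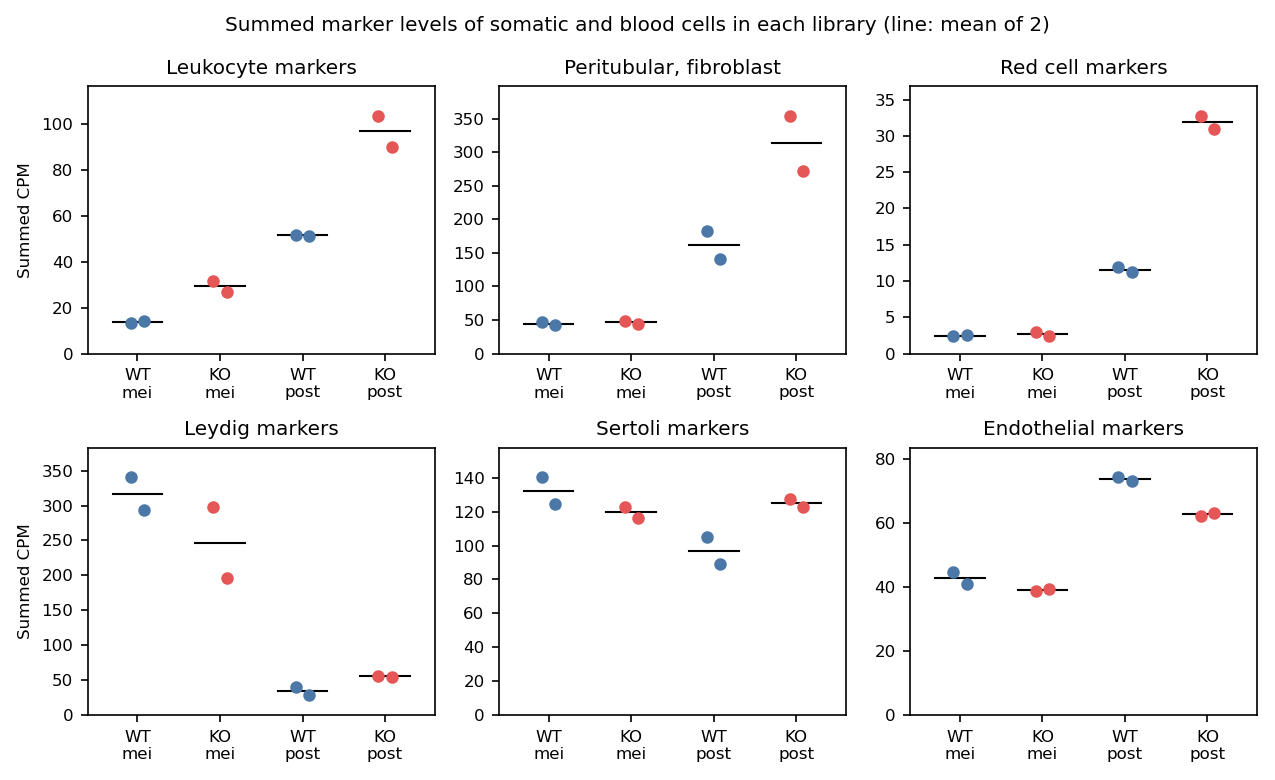
Summed CPM of marker genes of other testis and blood cells in each library, blue for WT and red for KO, with a line at the mean of the 2 libraries. Leukocyte sums are higher in KO at both stages, peritubular and red cell sums only after meiosis, and Leydig sums fall from meiotic to post-meiotic cells.

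Through the WT transition from meiotic to post-meiotic cells 7 of the 10 genes rose and 1, Jun, fell, where 29.6% of tested genes rose and 32.4% fell. Leaving out WT meiotic library 1 or 2 left 4 that rose, and leaving out WT post-meiotic library 1 left 3. Jun, Klf4 and Klf6 passed in all 15 alternatives. Through the KO transition 8 rose and Jun again fell, where 29.5% rose and 31.5% fell, with 3 that rose without KO meiotic library 2 and 4 without KO post-meiotic library 1. Fosl1 passed only in WT, and Fosl2 and Egr1 only in KO, and for none of these did the difference between the transitions pass. Leukocyte markers rose through both transitions, in 10 of 12 genes each, as did peritubular and fibroblast markers, in 12 of 12 each, red cell markers, in 5 of 5 each, and spermatid markers, in 12 of 12 each. Endothelial markers rose in 7 and fell in 1 of 12 in WT and rose in 6 and fell in 1 in KO, and Sertoli markers fell in 2 of 11 in WT and rose in 4 in KO. Red cell markers summed to 2.36 to 2.51 CPM in WT meiotic and 11.3 to 11.9 CPM in WT post-meiotic libraries, and to 2.35 to 2.90 and 30.9 to 32.8 CPM in KO libraries. The part of these cells in the rise of the members was not tested.

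**Figure D5:**
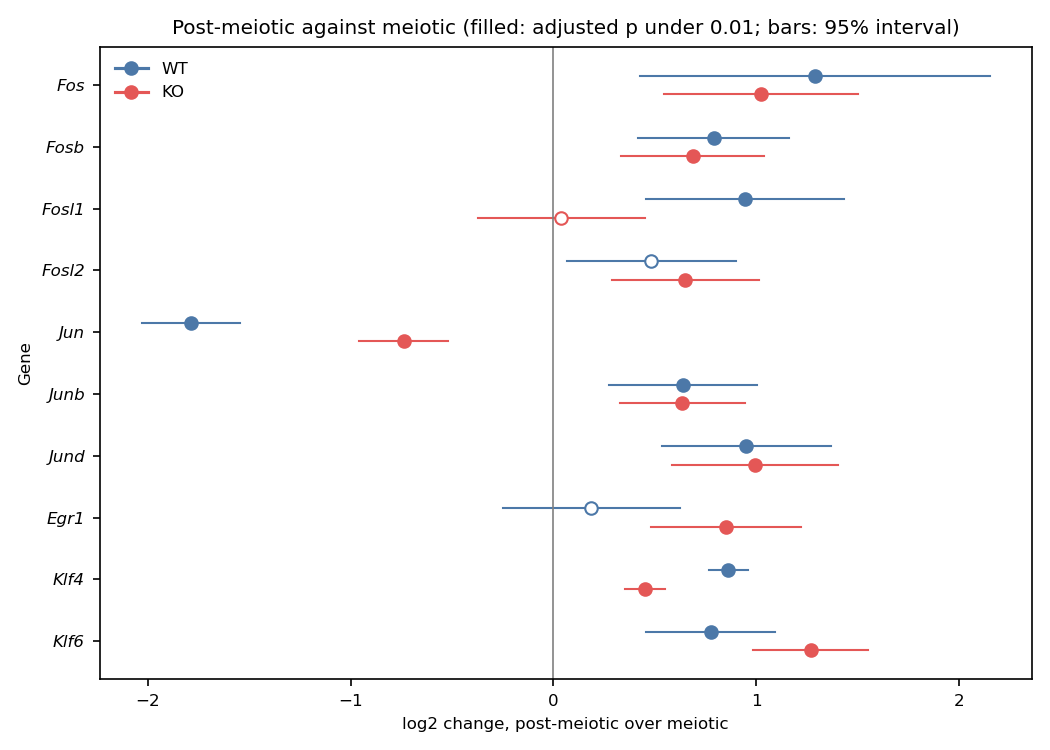
Log2 change of each gene from meiotic to post-meiotic cells, blue in WT and red in KO, with 95% intervals; filled points passed an adjusted p under 0.01. Jun is the only gene left of 0, farther in WT than in KO, and Klf4 rose more in WT than in KO.

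The KO effect itself differed between the stages for 2 of the 10 genes, Jun and Klf4, where 2.6% of tested genes differed. Their directions were opposite: the KO effect on Jun was higher after meiosis and that on Klf4 lower. Of all genes that differed, 64.6% had the higher KO effect after meiosis, 80% with library totals only and 49.3% in DESeq2. Both members were lost without KO post-meiotic library 1, an alternative under which 32 genes of the whole table passed in place of 531. In the other 13 alternatives both passed. Some markers differed between the stages as well. The KO effect was higher after meiosis for 4 of 12 Leydig and 3 of 12 peritubular and fibroblast markers. The same held for 1 of 11 spermatocyte and 1 of 5 red cell markers, and none of these 4 lists had a lower one. It was lower for 2 of 12 spermatid markers and higher for 0. The part of these cells in the differences of Jun and Klf4 was not tested.

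The wider early response was counted beside the share of all tested genes called, 8.98% higher and 8.55% lower in meiotic KO cells. Of 20 other early transcription factors 0 rose and 1 fell (2 and 3 at an unadjusted p under 0.05, 0 and 1 in DESeq2). Csrnp1, a nuclear protein first known as induced by axin, fell by 0.24 ± 0.061 (edgeR adjusted p = 0.00553). Of 24 tested early response effectors 3 rose and 1 fell (1 and 1 in DESeq2). Tnfaip3, an inhibitor of NF-κB signalling, rose by 0.91 ± 0.14 (edgeR adjusted p = 6.93e-05) and Zfp36, which makes AU-rich mRNAs of early genes decay, by 0.95 ± 0.22 (edgeR adjusted p = 0.00325). Errfi1, a brake on EGF receptors, rose by 0.29 ± 0.074 (edgeR adjusted p = 0.00575), and Pim1, a kinase, fell by 0.45 ± 0.064 (edgeR adjusted p = 3.39e-05).

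After meiosis, where 12.4% of all tested genes were called higher and 11.6% lower, 3 of the 20 other early transcription factors rose and 5 fell (1 and 3 in DESeq2). Ier2 rose by 1.40 ± 0.26 (edgeR adjusted p = 0.000362), Id1 by 1.10 ± 0.24 and Id2 by 0.66 ± 0.16, the Id proteins being inhibitors of bHLH factors. Csrnp1, Nr4a1, an orphan nuclear receptor, and Egr3, a close relative of Egr1, fell by 0.36 ± 0.062, 0.31 ± 0.069 and 0.59 ± 0.15. So Egr3 and Egr1 differed from WT in opposite directions, Egr3 at 3.38 and 3.82 CPM in WT and 2.18 and 2.61 CPM in KO post-meiotic libraries. Of the effectors 9 rose and 4 fell of 24 (6 and 3 in DESeq2). Zfp36 rose by 1.08 ± 0.20, Rhob, a small GTPase, by 0.72 ± 0.11 and Nfkbia, the inhibitor that holds NF-κB in the cytoplasm, by 0.70 ± 0.13. Pim1, Btg1 and Dusp2, the last a phosphatase of MAP kinases, fell by 0.37 ± 0.061, 0.29 ± 0.053 and 0.92 ± 0.22.

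Other bZIP genes, partners and antagonists of AP-1, were not called in meiotic KO cells: 0 of 15 tested entries rose and 0 fell in edgeR (2 and 2 at an unadjusted p under 0.05, 0 and 0 in DESeq2). Atf7 has 2 of these entries. After meiosis 4 rose and 1 fell (2 and 1 in DESeq2), beside 12.4% and 11.6% of all tested genes. Jdp2, a repressor that dimerises with Jun, rose by 1.08 ± 0.28 (edgeR adjusted p = 0.00558), from 0.322 and 0.376 to 0.758 and 0.714 CPM. Mafg and Maf rose by 0.65 ± 0.13 and 0.60 ± 0.12. Crem, the activator of spermatid genes in the mouse, fell by 0.27 ± 0.045 (edgeR adjusted p = 0.000141), from 303 and 308 to 253 and 254 CPM.

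Regulators upstream of AP-1 were called in both directions, 3 higher and 3 lower of 20 in meiotic and 2 higher and 3 lower in post-meiotic KO cells. DESeq2 called 2 higher and 3 lower in meiotic cells but 2 higher and 7 lower after meiosis. Over all tested genes the shares were 8.98% higher and 8.55% lower in meiotic and 12.4% and 11.6% in post-meiotic cells. In both stages Mapk14, which codes for p38, and Mapk7, which codes for ERK5, rose (0.41 ± 0.10 and 0.67 ± 0.094 in meiotic cells, 0.51 ± 0.11 and 0.49 ± 0.11 after meiosis). Mapk9, a JNK gene that acts on Jun, and Rps6ka4, a kinase of histone H3, fell in both (by 0.47 ± 0.056 and 0.26 ± 0.071, then by 0.25 ± 0.058 and 0.38 ± 0.071). In meiotic cells Rps6ka5, a relative of Rps6ka4, also rose, by 0.60 ± 0.074, and Elk3, an SRF partner, fell by 1.08 ± 0.22. Mapk3, an ERK gene, fell by 0.29 ± 0.070 after meiosis.

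Of 16 known targets of AP-1, 10 had enough reads to test. In meiotic KO cells 1 rose and 1 fell (0 and 1 in DESeq2), near the 8.98% and 8.55% of all tested genes, and in post-meiotic KO cells 2 rose and 1 fell (1 and 1 in DESeq2), beside 12.4% and 11.6%. Ccnd1, cyclin D1, rose by 0.44 ± 0.12 (edgeR adjusted p = 0.00764) and Mt1, a metallothionein, fell by 0.23 ± 0.049 (edgeR adjusted p = 0.00151). After meiosis Plau, the urokinase gene, rose by 1.10 ± 0.20 (edgeR adjusted p = 0.000257) and Cd44, a receptor on leukocytes and other cells, by 1.17 ± 0.31 (edgeR adjusted p = 0.00636), both at low levels. Plau was at 1.27 and 1.13 CPM in WT and 2.97 and 2.18 CPM in KO post-meiotic libraries. Mt1 fell again, by 0.32 ± 0.049. Heat shock genes, which share induction by stress, were called in both directions, 3 higher and 1 lower of 12 in meiotic and 2 higher and 3 lower in post-meiotic KO cells (3 and 1, then 2 and 4 in DESeq2), beside the same shares of all tested genes. Hspa1b, an inducible Hsp70 gene whose reads are uncertain because Hspa1a is a near-identical copy, had 0.385 and 0.187 CPM in WT and 3.58 and 3.16 CPM in KO meiotic libraries, and 0.322 and 0.179 CPM in WT and 10.7 and 9.15 CPM in KO post-meiotic libraries. Both KO libraries were far above both WT libraries at each stage. Hspa1b rose by 3.52 ± 0.24 in meiotic (edgeR adjusted p = 4.03e-09) and by 5.28 ± 0.22 in post-meiotic cells (edgeR adjusted p = 3.76e-12), on 10 to 25 reads per WT library, where Fos rose by 2.50 and 2.24. The difference between these Hspa1b changes did not pass (1.76 ± 0.43, edgeR adjusted p = 0.0154). The copy Hspa1a did not rise. Its KO effects were -0.29 ± 0.25 in meiotic (edgeR adjusted p = 0.427) and -0.12 ± 0.21 in post-meiotic cells (edgeR adjusted p = 0.678). Hspd1, a mitochondrial chaperonin, rose in both stages by 0.48 ± 0.093 and 0.46 ± 0.098, and Bag3, a partner of Hsp70, fell in both by 0.33 ± 0.064 and 0.27 ± 0.065.

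The genes most like a member were ranked by Pearson correlation of log2 CPM over the 8 libraries, among 17251 genes. The libraries share 4 groups, so these values describe likeness of pattern and carry no test. For Fos they were Adam22, Mef2c, Kdm4a, H2-D1 and Epm2aip1, at 0.991 to 0.987. H2-D1 is a class I MHC gene, and no gene named for Fos is on a marker list. For Jun they were Vav1, Crebl2, 4930444A02Rik, Susd5 and 2310008H04Rik, at 0.995 to 0.989. Those of Egr1 were Gm16899, Bsn, Gm17462, Wt1 and Slit2, at 0.986 to 0.967. Of these only Wt1 is on a marker list, that of Sertoli cells. Klf4 was nearest to 4930432K09Rik, 1700086L19Rik, Hsf2, Lmbrd1 and Ccdc116, at 0.998 to 0.997. Among the 10 genes themselves the highest value was that of Fos with Junb, 0.965, and the lowest that of Jun with Klf4, -0.991.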

How the data were processed

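Stranded total RNA libraries were sequenced as single-end reads, which the authors aligned with TopHat2 2.0.14 (Bowtie2 2.1.0) to the mm9 genome, keeping unique alignments. The deposited values are raw counts of reads per Ensembl gene, which the authors made with HTSeq 0.6.1. The strand setting of that counting is not given in the sources used here, so counts of Fosl1, Jun, Jund and Egr1 may be affected by a gene on the other strand. The genes over Jund and Egr1, Gm11175 and Gm17507, had 0 to 5 and 0 to 1 reads per library. The deposited gene table also holds the authors' log2 changes and adjusted p-values from DESeq2 1.14.1, which were not used, nor were the tables of piRNA clusters and repeats.

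The counts were used as deposited. Total counts were 57853283 to 92836630 per library, and the number of reads behind a gene limits its precision. The edgeR 4.0.16 filter in R 4.3.3 retained 20412 of 29880 genes, all 10 members among them. After TMM scaling, 1 robust quasi-likelihood model was fitted to the 8 libraries, Benjamini-Hochberg adjustment covered every tested gene, and passing means an adjusted p under 0.01. Errors of log2 changes are standard errors. Intervals are 95% intervals from the quasi-likelihood degrees of freedom. The test of KO against WT in meiotic cells was also run on simulated data in which every gene had the same spread. That run cannot show how the test does for genes whose libraries spread more, such as Jund. Exon lengths were taken from GENCODE vM1, where 9 of the 10 members have the coordinates of the deposited table and Egr1 starts at 35020861. CPM per kb divides by merged exon length. Replicate pairs of each group differed by more than sampling noise (chi-square per gene of 5.11 to 9.99).

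Groups came from the labels. Comparisons were KO against WT at each stage, post-meiotic against meiotic in each genotype, and the difference between the KO effects. Replicate numbers were checked for pairing. Differences of library 1 from library 2 correlated between the stages at 0.109 in WT and 0.0975 in KO, and at -0.0616 to 0.0331 elsewhere. With 2 libraries a group these values cannot tell whether same-numbered libraries came from the same mouse. Members and lists were chosen with earlier results of these data known. The lists are other bZIP genes, other early transcription factors, early response effectors, upstream regulators, AP-1 targets, heat shock genes, and markers of spermatogonia, spermatocytes, spermatids, Sertoli, Leydig, peritubular and fibroblast, endothelial, leukocyte and red cells. Named genes are all members, up to 3 per direction with the smallest adjusted p from the lists, and the 5 most alike (at least 50 reads in the highest library, log2 CPM with a prior count of 2) for Fos, Jun, Egr1 and Klf4. Of the marker lists mainly summed levels are given. Alternatives were RLE factors, library totals, DESeq2 1.42.0, no filter, at least 50 reads in 2 libraries, a fit of the compared libraries alone, a block for the replicate number, and each library left out.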

Additional observations from a re-analysis of the deposited data

Results flagged for a closer look

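The effect of the KO differed between meiotic and post-meiotic cells for Jun, by 1.05 on the log2 scale (0.88 after meiosis against -0.17 in meiotic cells), and for Klf4, by -0.41 (-0.44 against -0.03). Both differences passed the edgeR test of the difference itself, with adjusted p-values of 0.000727 and 0.00113, and were lost without KO post-meiotic library 1 (adjusted p = 0.0175 and 0.0152).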

How the results depend on the processing

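Leaving out 1 library at a time gave 1 to 3 members past the threshold in KO meiotic cells, 3 to 5 higher in KO post-meiotic cells, 4 to 8 in the WT transition (3 to 7 higher), 4 to 9 in the KO transition (3 to 8 higher), and 0 to 2 for the difference between the KO effects (0 to 1 in each direction). Over all genes the range was 2160 to 3482 against 3578, 2380 to 5181 against 4905, and 32 to 498 against 531 for the difference, which was 1251 with no filter. With the replicate block the members past the threshold were 3, 7, 8, 9 and 2, and it changed no other call than that of post-meiotic Fosl2. Whether the replicate numbers pair these libraries is not known. Reversed directions were all among differences that did not pass. With 1 library left out, meiotic KO effects ran from -0.0050 to 0.22 for Fosb and -0.10 to 0.19 for Jund, and post-meiotic ones from -0.15 to 0.13 for Fosb, -0.043 to 0.32 for Fosl1 and -0.13 to 0.26 for Jund. The KO transition of Fosl1 ran from -0.10 to 0.13. Differences between the KO effects ran from -0.62 to 0.15 for Fos, -0.26 to 0.018 for Fosb, -0.055 to 0.35 for Fosl2, -0.17 to 0.15 for Junb and -0.19 to 0.20 for Jund. Library totals turned meiotic Klf4 to 0.036, the KO transition of Fosl1 to -0.057 and the difference of Junb to 0.038. Post-meiotic Fosb was -0.037 with RLE factors and -0.042 in DESeq2, and with no filter the KO transition of Fosl1 was -0.0032. The cause was not tested. Library totals moved the median of all genes from 0.04 to 0.14 in KO post-meiotic cells and from 0.01 to -0.12 in the WT transition. The calls that kept their side of the threshold in every alternative were those of Fos in both KO comparisons, Jun and Klf4 in KO post-meiotic cells, and Jun, Klf4 and Klf6 in both transitions. Fosb, Fosl1, Fosl2, Junb and Egr1 had 36 to 235 reads per library, and Fos had 15 to 214. Their intervals give the range of changes that the data allow, which depends on the spread of the libraries as well as on depth.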
